A study of Mus musculus with 18 samples.

Results

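The globin genes followed here are 5 of the 18194 mouse genes read by a probe set of their own on these arrays: Hba-x, Hbb-bh1 and Hbb-y, which encode embryonic chains, and Hbb-b2 and Hba-a2, which encode adult chains. They were chosen by gene symbol. Where a gene had several probe sets of its own, the brightest over all arrays was used and the others served as a check. Expression was read in G1E-ER4 cells, a mouse erythroid progenitor line that lacks its own working Gata1 and instead carries GATA1 joined to the ligand-binding part of the estrogen receptor, which estradiol activates. All 6 groups come from this 1 engineered line and carry both changes. There were 6 groups of 3 Affymetrix arrays each: cells before estradiol (0 h), and cells after 3, 7, 14, 21 and 30 h in 20 nM estradiol. The labels name the 3 samples of a time biological replicates but do not say whether each was a culture of its own, so the p-values reflect the spread between these samples, which may be technical. With 1 untreated group, taken at 0 h, estradiol and hours in culture cannot be told apart.

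Hemoglobin is built from alpha-like and beta-like chains, each holding a heme. In the mouse the first red cells, made in the yolk sac, use the zeta chain (Hba-x) with the beta-like chains beta-h1 (Hbb-bh1) and epsilon-y (Hbb-y), and during their maturation beta-h1 comes before epsilon-y. Red cells made later, in the fetal liver and bone marrow, use the adult alpha (Hba-a1, Hba-a2) and adult beta genes. GATA1, KLF1 and the proteins they recruit act at the promoters of these genes and at distant enhancers, while factors such as BCL11A and SOX6 hold the embryonic beta-like genes down in adult cells.

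The promoters of 3 of the 5 genes, Hba-x, Hbb-y and Hba-a2, are shown. The sequences used here held no promoter of Hbb-bh1 or Hbb-b2, so those could not be read. The 3 genes shown followed different courses while carrying some of the same short motifs. Each run is the 250 bases before the annotated start, 5′ to 3′ on the gene's strand, from RefSeq on GRCm38.p6. Capitals mark matches, on either strand, to GATA hexamers (AGATAA, also with T as its first base, with G as its last, or with both), to the box CCACCC, to the box CCAAT and to TATA-like hexamers (TATAAN, with CATAAA counted as well).
Hba-x, chr11:32276350-32276599, plus strand: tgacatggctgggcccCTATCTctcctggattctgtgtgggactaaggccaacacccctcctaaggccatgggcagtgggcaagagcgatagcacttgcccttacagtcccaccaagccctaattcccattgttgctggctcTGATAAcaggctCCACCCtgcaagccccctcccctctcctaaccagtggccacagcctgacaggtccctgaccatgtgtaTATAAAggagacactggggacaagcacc
Hbb-y, chr7:103853208-103853457, minus strand: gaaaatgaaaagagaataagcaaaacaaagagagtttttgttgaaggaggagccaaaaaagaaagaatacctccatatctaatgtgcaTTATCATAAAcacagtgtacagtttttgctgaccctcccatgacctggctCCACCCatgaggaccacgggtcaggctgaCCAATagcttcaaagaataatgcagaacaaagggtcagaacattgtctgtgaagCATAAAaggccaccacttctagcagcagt
Hba-a2, chr11:32296242-32296491, plus strand: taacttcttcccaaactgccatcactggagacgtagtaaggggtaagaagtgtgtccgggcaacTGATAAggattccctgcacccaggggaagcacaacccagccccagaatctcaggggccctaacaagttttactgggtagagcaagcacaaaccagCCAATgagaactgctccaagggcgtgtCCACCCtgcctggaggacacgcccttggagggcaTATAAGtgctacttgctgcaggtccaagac
All of them held a CCACCC match, at 96 to 91 bases before the start in Hba-x, 112 to 107 in Hbb-y and 64 to 59 in Hba-a2. A GATA hexamer lay next to it in Hba-x, at 108 to 103 bases, whereas the nearest in Hbb-y was at 162 to 157 on the opposite strand, overlapping a CATAAA match, and that in Hba-a2 at 186 to 181. A second GATA match in Hba-x lay at 234 to 229 bases, on the opposite strand. A TATA-like match began 28 bases before the start in Hba-x, 29 in Hbb-y and 30 in Hba-a2. CCAAT was found in Hbb-y (83 to 79 bases) and in Hba-a2 (91 to 87). Among 32851 promoter windows of the same length, 26.5% held a GATA hexamer, 28.1% CCACCC, 33.8% CCAAT and 29.6% a TATA-like match, so each motif alone is common. The windows of Hba-a1 and Hba-a2 shared an unbroken run of 297 of 300 bases.

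Values are the authors' deposited log2 expression values, and array medians lay between 4.04 and 4.09. The 40th percentile of the arrays, below which a signal is called dim here, lay between 3.20 and 3.35. A gene was tested if it exceeded that level on at least 3 arrays, which 12720 genes did, all 5 globin genes among them. Hbb-y did so on 0 of the 6 arrays at 0 h and 3 h and passed only through later arrays, so it had to differ, and its fold depends on a starting level near the arrays' low end. A Gata1 probe set read 10.21 ± 0.080 (SD, n = 3) at 0 h and 11.08 ± 0.020 at 30 h, and whether it reads the disrupted gene, the fusion or both is not known here. Two-sided tests are from limma. In each comparison their p-values were adjusted across the 12720 genes by the Benjamini-Hochberg method, and a gene is called at an adjusted p under 0.05. The 5 comparisons with 0 h share the 0 h arrays. In bulk RNA, more cells making a transcript and more transcript per cell cannot be told apart.

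Hbb-bh1 was the first embryonic chain to rise, and the only one of the 3 called at every step. The arrays read 4.51, 3.93 and 4.33 at 0 h, 5.21, 5.12 and 5.26 at 3 h, and 7.11, 7.06 and 6.81 at 7 h. They read 8.49, 8.96 and 8.85 at 14 h, 9.88, 9.82 and 9.74 at 21 h, and 11.57, 11.58 and 11.58 at 30 h. At each time all 3 arrays lay above all 3 of the time before. After 3 h Hbb-bh1 stood 0.94 above 0 h (SE 0.13, limma adjusted p = 7.93e-05). It stood 2.74, 4.51 and 5.56 above 0 h after 7, 14 and 21 h, and 7.32 above it by 30 h, 160-fold (adjusted p = 3.42e-16). At 30 h this ranked it 2 among the 12720 genes by log2 change. The steps were 1.80 from 3 h to 7 h, 1.78 from 7 h to 14 h, 1.05 from 14 h to 21 h and 1.76 from 21 h to 30 h. Only 64 of the 12720 genes, or 0.503%, were called higher at all 5 steps. Of 29 alternatives per comparison, only using the dimmest of its 3 probe sets ended a call, that at 3 h.

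Hba-x, the zeta chain, was not called different from 0 h through 7 h and then rose. Its arrays read 3.81, 3.99 and 3.69 at 0 h, 3.35, 3.71 and 3.26 at 3 h, and 4.04, 4.10 and 3.21 at 7 h. They read 6.16, 6.19 and 6.18 at 14 h, 7.22, 7.13 and 7.17 at 21 h, and 8.90, 8.82 and 8.88 at 30 h. Through 7 h the groups overlapped, and from 14 h on each group lay wholly above the one before. Hba-x differed from 0 h by -0.39 after 3 h (adjusted p = 0.120) and by -0.05 after 7 h (adjusted p = 0.870). After 14 h it was 2.35 higher (SE 0.18, adjusted p = 2.04e-08), after 21 h 3.35 higher, and by 30 h 5.04 higher, which is 32.8-fold. That fold depends on a starting level not far above the one called dim (3.20 to 3.35). The step from 7 h to 14 h was 2.40, 5.28-fold, and ranked 3 among all genes. The later steps were 0.996 (adjusted p = 0.000415) and 1.69 (adjusted p = 1.36e-06). The low array at 7 h, replicate 3, read 3.21, a value that 87 other probe sets of that array share exactly, and without it Hba-x was called lower at 3 h (-0.39, adjusted p = 0.00918) and higher at 7 h than at 3 h (0.63, adjusted p = 0.00150). Hba-x has only 1 probe set of its own, so no other probe set checks this course.

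Hbb-y, the epsilon-y chain, was the latest, with most of its rise after 21 h. Its arrays read 2.33, 1.93 and 3.00 at 0 h, 2.54, 1.75 and 2.98 at 3 h, and 2.44, 2.68 and 3.61 at 7 h, when each value was shared exactly with 62 to 151 other probe sets. They read 3.67, 4.20 and 4.70 at 14 h, 5.59, 5.62 and 5.28 at 21 h, and 9.33, 9.25 and 9.21 at 30 h. The first 3 times overlapped each other, and from 14 h on each group lay wholly above the one before. Hbb-y differed from 0 h by 0.0068 after 3 h (adjusted p = 0.993) and by 0.49 after 7 h (adjusted p = 0.323). It was 1.77 higher after 14 h (SE 0.35, adjusted p = 0.000568), 3.08 higher after 21 h and 6.84 higher by 30 h, which is 115-fold. The rise from 21 h to 30 h, 3.77 or 13.6-fold (adjusted p = 4.31e-07), ranked 1 among all genes at that step. The steps from 7 h to 14 h and from 14 h to 21 h were 1.28 (adjusted p = 0.0152) and 1.30 (adjusted p = 0.00917). The earlier of these lost its call without 7 h replicate 1 (adjusted p = 0.0713), 7 h replicate 2 (0.0572) or 14 h replicate 3 (0.0788).

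**Figure D1:**
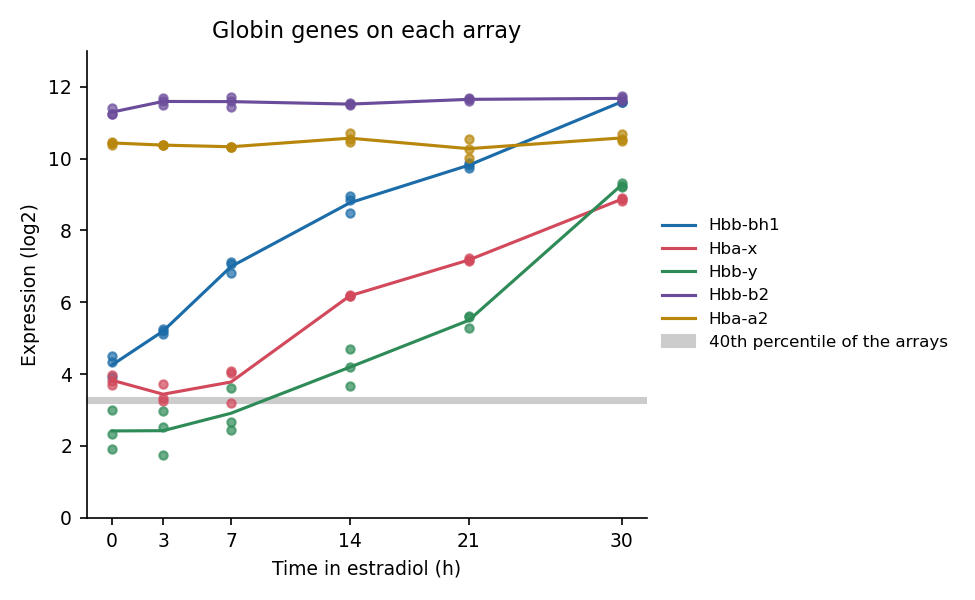
Log2 expression of the 5 globin genes (vertical axis) on each of the 18 arrays (points, 3 per time) against hours in estradiol, with lines through the means of 3; the grey band is the range of the arrays' 40th percentile. Hbb-bh1 climbs from 0 h on, Hba-x after 7 h and Hbb-y most steeply after 21 h, while Hbb-b2 and Hba-a2 stay between 10.002 and 11.73.

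The embryonic chains were thus first called above 0 h at 3 h for Hbb-bh1 and at 14 h for Hba-x and Hbb-y. Expressed as a share of each gene's own rise on the log2 scale, Hbb-bh1 had covered 37.4% ± 2.22 (SD, n = 3) by 7 h, Hbb-y 7.19% ± 8.99 and Hba-x -0.97% ± 9.87. By 14 h the shares were 61.6% ± 3.32 for Hbb-bh1, 46.7% ± 0.35 for Hba-x and 25.9% ± 7.53 for Hbb-y. By 21 h they were 75.9% ± 1.01, 66.5% ± 0.89 and 45.0% ± 2.78 in the same order, and the arrays of the 3 genes did not overlap at either time. The order Hbb-bh1, Hba-x, Hbb-y at 14 h and 21 h was also found under each of the 3 scaling alternatives, with probe sets averaged per gene, and with each of the 18 arrays left out in turn.

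On the linear scale the picture differed. Relative to its own 30 h signal, Hba-x stood at 15.5% ± 0.19 at 14 h and 31.0% ± 0.96 at 21 h, and Hbb-bh1 at 14.4% ± 2.32 and 29.5% ± 1.51, so those 2 genes overlapped at both times. Hbb-y stood at 3.10% ± 1.09 and 7.38% ± 0.93. Before that, Hba-x had the higher share at 0 h (3.06% against 0.63%) and at 3 h (2.35% against 1.20%). At 7 h the means were 3.05% for Hba-x and 4.19% for Hbb-bh1. The arrays barely overlapped then, with Hba-x up to 3.6686% and Hbb-bh1 from 3.6684%. Hba-x read only 3.69 to 3.99 at 0 h and 3.26 to 3.71 at 3 h, close to the dim level (3.20 to 3.35). It was not called above 0 h at 3 h or 7 h. How much of these early shares is background was not tested, so they do not show earlier expression of Hba-x. The linear share, unlike the log2 share, did not subtract the 0 h level. The 2 measures thus differ in baseline as well as in scale, and the effect of scale alone was not tested. At 14 h and 21 h Hbb-bh1 lay wholly above Hba-x only on the log2 measure, while Hbb-y was behind both on either.

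**Figure D2:**
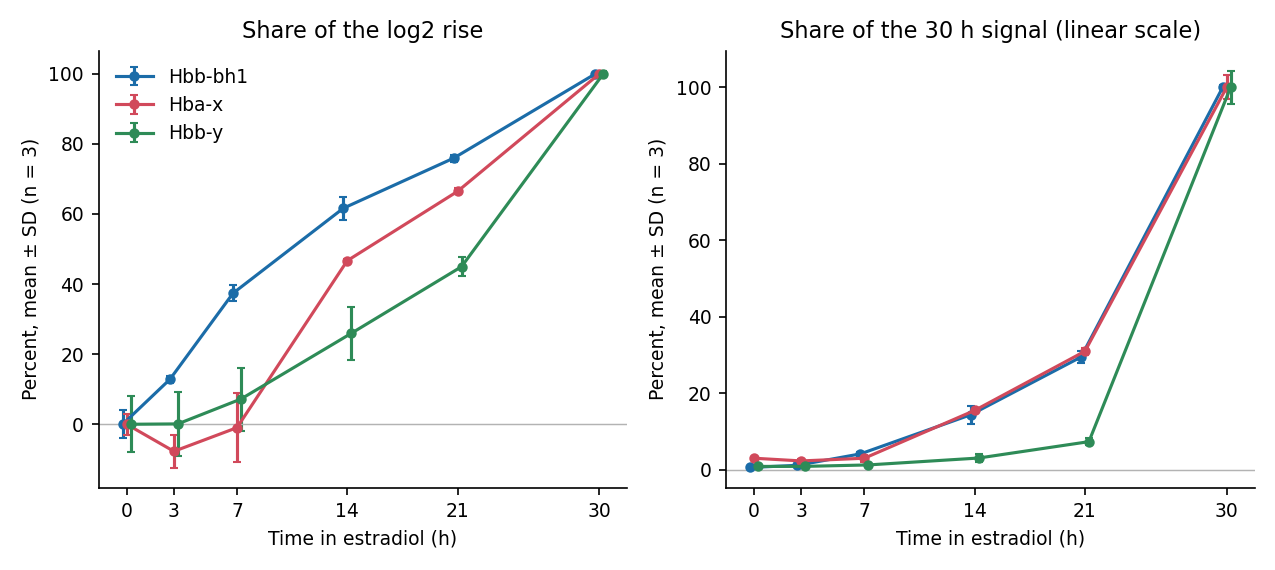
Share of each embryonic chain's own 0 h to 30 h rise on the log2 scale (left) and of its own 30 h signal on the linear scale (right), as mean ± SD of 3 arrays per time, in percent, against hours in estradiol; points are offset slightly in time for clarity. On the left the order at 14 h and 21 h is Hbb-bh1, Hba-x, Hbb-y. On the right the arrays of Hbb-bh1 and Hba-x barely overlap at 7 h, and also overlap at 14 h and 21 h.

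Differences between 2 chains were also taken within each array. The difference Hba-x minus Hbb-bh1 changed by -1.33 from 0 h to 3 h and by -1.46 from 3 h to 7 h, and then by 0.62 from 7 h to 14 h, each time without overlap of the arrays. After 14 h the difference changed by -0.05 and -0.07 over the last 2 steps, with overlapping arrays. From 21 h to 30 h Hbb-y changed by more than Hba-x (difference -2.08 for Hba-x minus Hbb-y) and by more than Hbb-bh1 (-2.004 for Hbb-bh1 minus Hbb-y), again without overlap. Of 15 such comparisons (3 pairs over 5 steps) 6 had no overlap, each with an exact two-sided permutation p = 0.1, the smallest that 3 arrays against 3 can give. The permutation p was 0.25 for each after Benjamini-Hochberg adjustment over the 15, so none passed.

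Per hour, Hbb-bh1 changed fastest between 3 h and 7 h, by 0.45 log2 units (SE 0.033). Hba-x changed fastest between 7 h and 14 h, by 0.34 (SE 0.025). Hbb-y changed fastest between 21 h and 30 h, by 0.42 (SE 0.039). Between 14 h and 21 h all 3 rose at similar rates, 0.15 for Hbb-bh1, 0.14 for Hba-x and 0.19 for Hbb-y (SE 0.050). For Hbb-y this is the rate of the probe set used, which rose by 1.30 over that step. The dimmest Hbb-y probe set changed by only 0.50 and was not called (limma adjusted p = 0.0729).

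**Figure D3:**
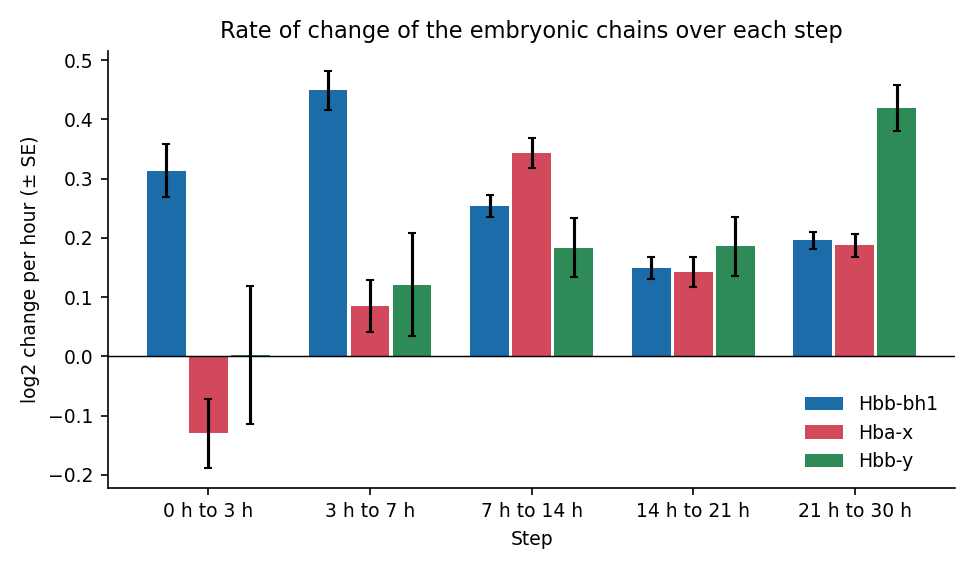
Log2 change per hour over each of the 5 steps between neighboring times (horizontal axis) for the 3 embryonic chains; bars are differences of means of 3 arrays divided by the hours of the step, and error bars are the limma SE divided by the same hours. The highest bar lies at 3 h to 7 h for Hbb-bh1, at 7 h to 14 h for Hba-x and at 21 h to 30 h for Hbb-y.

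The other probe sets of Hbb-bh1 and Hbb-y also rose by 30 h, but differed in size and in the early calls. A second Hbb-bh1 probe set rose by 0.81 at 3 h (limma adjusted p = 0.00736 over 28798 probe sets tested singly) and by 7.71 at 30 h. The dimmest, at 3.65 before estradiol, changed by 0.27 at 3 h (adjusted p = 0.269), then rose by 1.97 at 7 h (adjusted p = 2.69e-07) and by 6.79 at 30 h. For Hbb-y the probe set used and a near equal, both of a kind prone to cross-hybridize, rose by 6.84 and 6.70 at 30 h. The remaining Hbb-y probe set, not of that kind, read 2.77 at 0 h and 4.98 at 30 h. It changed by 0.16 at 14 h (adjusted p = 0.572), and rose by 0.66 at 21 h (adjusted p = 0.0100) and by 2.21 at 30 h (adjusted p = 6.32e-08), which is 4.63-fold where the probe set used gave 115-fold. Its steps from 7 h to 14 h (0.025, adjusted p = 0.956) and from 14 h to 21 h (0.50, adjusted p = 0.0729) were not called. All 3 Hbb-y probe sets had their largest step from 21 h to 30 h, at 3.77, 3.71 and 1.55. The calls of Hbb-y at 14 h, from 7 h to 14 h and from 14 h to 21 h thus rest on the pair of probe sets prone to cross-hybridize.

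The adult beta chain gene Hbb-b2 was bright from the start and changed little. Its arrays read 11.23, 11.24 and 11.41 at 0 h and 11.49, 11.61 and 11.67 at 3 h. They read 11.73, 11.61 and 11.68 at 30 h. All 3 arrays of every later time lay above all 3 at 0 h. Hbb-b2 was 0.30 above 0 h after 3 h (SE 0.073, adjusted p = 0.00723) and 0.22 above it after 14 h (adjusted p = 0.0214). It was 0.29 above it after 7 h, 0.35 after 21 h and 0.38 by 30 h, which is 1.30-fold (adjusted p = 0.000234). No step after 3 h was called. The rise at 14 h was lost without 0 h replicate 1 (adjusted p = 0.0837), 0 h replicate 2 (0.0755) or 14 h replicate 2 (0.0627). Scaling on the hybridization controls kept the direction at every time against 0 h, but only the 30 h call stood. At 3 h the change was then 0.39 (adjusted p = 0.300). A dimmer Hbb-b2 probe set, prone to cross-hybridize, read 5.29, 5.87 and 6.65 at 0 h, a wide spread, and 7.51, 7.49 and 6.75 at 30 h. It rose by 1.31 at 30 h (SE 0.33, adjusted p = 0.00232), more than 3 times the log2 change of the one used. Its changes at 3 h (0.61, limma adjusted p = 0.213), 7 h (0.81, adjusted p = 0.0830) and 14 h (0.56, adjusted p = 0.195) were not called. A probe set shared by Hbb-bt, Hbb-bs, Hbb-b2 and Hbb-b1, the names of adult beta genes in different mouse strains, went from 12.99 ± 0.011 to 13.31 ± 0.067 (SD, n = 3), a rise of 0.32 (SE 0.053, adjusted p = 6.36e-05). At 3 h this shared probe set had changed by 0.07 (limma adjusted p = 0.409), and it was first called higher at 7 h (0.16, adjusted p = 0.0310). The 3 h call of Hbb-b2 thus rests on the probe set used for it. The shared probe set ranked 124 to 128 in brightness among the array's 45101 at 0 h and 22 to 47 at 30 h. It then lay 0.90 to 0.92 below the brightest probe set, and whether saturation limited its rise was not tested.

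For the adult alpha chain, the probe set of Hba-a2 alone and those shared with Hba-a1 differed. The Hba-a2 arrays read 10.47, 10.44 and 10.39 at 0 h and 10.54, 10.69 and 10.49 at 30 h. Hba-a2 differed by 0.14 at 30 h (SE 0.10, adjusted p = 0.240), although the 3 arrays at 30 h lay above those at 0 h. The widest spread was at 21 h, with 10.002, 10.28 and 10.55. Around that time Hba-a2 was called lower from 14 h to 21 h (-0.29, adjusted p = 0.0405) and higher from 21 h to 30 h (0.30, adjusted p = 0.0305), with overlapping arrays in both. Leaving out 9 of the 18 arrays, one at a time, ended the first of these calls. Leaving out 21 h replicate 1, 21 h replicate 2 or 30 h replicate 2 ended the second (adjusted p = 0.164, 0.0642 and 0.122), as did control scaling (0.0745) and fitting only the arrays compared (0.159).

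All 3 probe sets shared by Hba-a1 and Hba-a2 rose, each by an amount of its own. One went from 9.65, 9.99 and 10.41 at 0 h to 12.08, 12.03 and 11.90 at 30 h, a change of 1.98 or 3.95-fold (SE 0.14, adjusted p = 3.01e-09). The others rose by 0.82 (from 12.91 ± 0.066 to 13.72 ± 0.042) and by 0.87 (from 12.26 ± 0.028 to 13.13 ± 0.055). Both were higher at 14 h, by 0.63 and 0.58. The brighter of them had been called lower at 3 h (-0.20, adjusted p = 0.0232) and ranked 4 to 5 in brightness on the 30 h arrays, 0.47 to 0.51 below the brightest probe set. A single probe set listed for Hba-a1 alone read 1.73 to 2.63 on the arrays of 0 h and 30 h and was too dim to test. Which of the alpha genes rose cannot be told apart from shared probe sets.

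**Figure D4:**
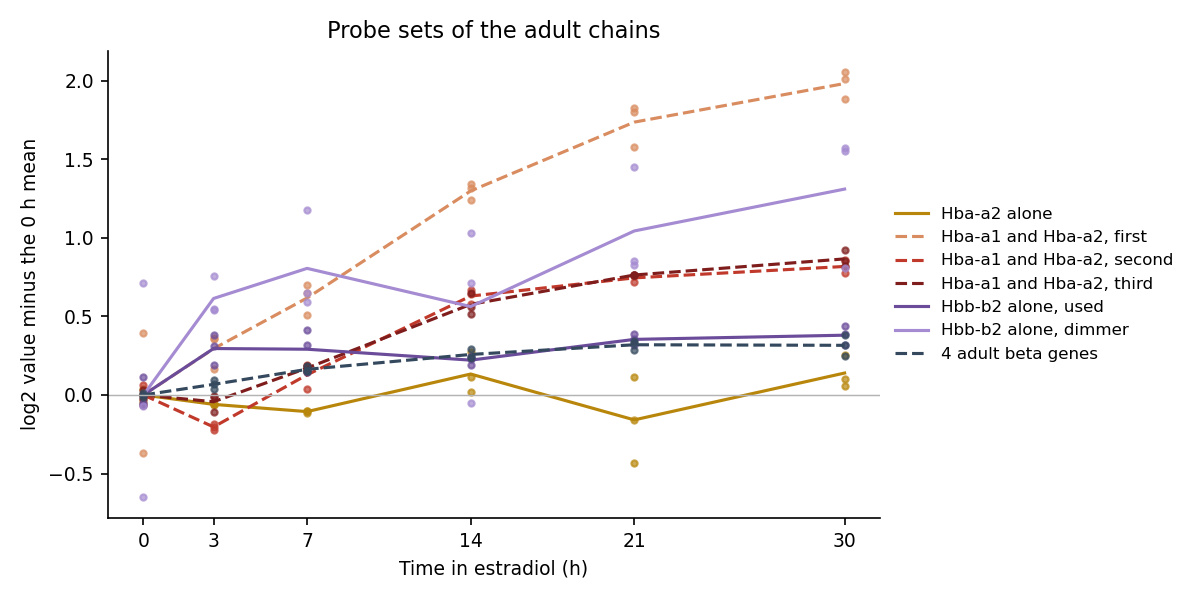
Log2 value minus the 0 h mean of each adult-chain probe set (vertical axis) on every array (points) against hours in estradiol, with lines through the means of 3; solid lines are probe sets of 1 gene and dashed lines are shared by several. The shared alpha probe sets end at 0.82, 0.87 and 1.98, and the Hba-a2 probe set at 0.14.

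Counted over the 5 genes, 2 were called higher at 3 h than at 0 h, where 11.2% of all tested genes were, and 2 at 7 h, against 15.3%. At 14 h, 21 h and 30 h 4 of the 5 were called higher, against 22.2%, 31.4% and 36.6% of all genes. These 4 include Hbb-y, which entered the test only through its later arrays, so its call adds nothing to that comparison. Between neighboring times the counts were 1 from 3 h to 7 h (9.8% of all genes), 3 from 7 h to 14 h (11.5%), 3 from 14 h to 21 h (15.7%) and 4 from 21 h to 30 h (18%). The only call in the other direction was Hba-a2 from 14 h to 21 h, where 17.5% of all genes were lower. An F test over all times called 4 of the 5, with Hba-a2 at adjusted p = 0.0670, and 74.3% of all genes. Hbb-y is among the genes called by the F test and among the 3 called from 7 h to 14 h. For the same reason its calls add nothing there either. The 3 h count was 1 with control scaling, which lost Hbb-b2, and 1 with probe sets averaged per gene, where Hbb-b2 had adjusted p = 0.0755.

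Among other proteins with a globin fold, myoglobin (Mb) rose by 0.50 at 30 h (adjusted p = 0.00261) and neuroglobin (Ngb) by 0.31 (adjusted p = 0.0131), reaching only 4.58 and 3.53. Ngb lost its call in 4 of 26 alternatives, among them leaving out 0 h replicate 2 or 30 h replicate 2. Cygb, cytoglobin, changed by 0.19 (adjusted p = 0.374).

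Of 18 activators of globin transcription, 11 rose at 30 h and 5 fell, where 36.6% of all tested genes rose and 33% fell, so the share that fell is near that of all genes. The median change was 0.24, against 0.09 for all tested genes. Control scaling called 9 higher and 2 lower. At 14 h 7 of the 18 were called higher and 3 lower, where 2829 of all 12720 tested genes were higher and 2887 lower. Mafk and Mafg, small MAF partners of NF-E2, rose by 2.39 and 1.39 at 30 h. Mafk was already higher at 3 h (0.82) and 14 h (1.72). Mafg was called lower at 3 h (-0.39, limma adjusted p = 0.00130) and was not called at 14 h (0.12, adjusted p = 0.237). Zfpm1, the GATA1 cofactor FOG1, rose by 1.81 and Klf13, a Krüppel-like factor, by 1.39. Tcf3, which encodes the E2A partner of TAL1, fell by 1.58 (adjusted p = 1.39e-10), and Nfya, a subunit of the CCAAT-binding factor NF-Y, was lower too (-1.22). Klf1, which binds CACCC boxes of globin promoters, read 11.31 ± 0.037 at 0 h and rose by 0.80 (adjusted p = 7.64e-10). Klf1 and Nfya, and Bcl11a and Zbtb7a among the repressors, are named outside the rule, with their values known.

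Of 18 repressors and chromatin factors linked to silencing of embryonic globin genes, 11 fell and 6 rose at 30 h, again against 33% and 36.6% of all tested genes, so the share that rose is near that of all genes. The median change was -0.57. Control scaling gave 9 lower and 5 higher. Myb, a progenitor factor, fell most, from 12.43 ± 0.047 to 7.81 ± 0.13, a log2 change of -4.62 (SE 0.069, adjusted p = 3.40e-17). At 14 h Myb had changed by -0.96. Sox6 went from 6.46 ± 0.13 to 4.13 ± 0.10, a change of -2.32, and stood at -1.81 by 14 h. Chd4 and Mbd3, subunits of the NuRD complex, and the histone deacetylase Hdac2 changed by -1.68, -1.26 and -1.19. Bcl11a read 10.95 ± 0.055 at 0 h and 9.998 ± 0.031 at 30 h, a change of -0.95 (adjusted p = 1.18e-09), but only -0.17 at 14 h. Zbtb7a, the LRF repressor of fetal and embryonic globin genes, went the other way, with 0.87 (adjusted p = 1.56e-08). Over 28 alternatives Sox6 ranged from -2.39 to -0.997, Bcl11a from -0.97 to -0.75 and Zbtb7a from 0.26 to 1.07. Each stayed called in the same direction, but the sizes for Sox6 and Zbtb7a depended on the setting. Among fetal-stage RNA-binding proteins, Igf2bp3 and Igf2bp1 fell by 3.07 and 1.27, and Lin28a and Lin28b lay below the level for testing.

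Of 13 genes listed for hemoglobin partners and heme, 11 were measured; Ahsp, which encodes the alpha-globin chaperone, was not among them. All 11 rose at 30 h, against 36.6% of all tested genes, with a median of 1.45, and all 11 were called with control scaling. They are mostly genes of heme synthesis and mitochondrial transport, so they say nothing of the chaperone. Alas2, the first enzyme of erythroid heme synthesis, rose by 6.49 and was already 0.80 higher at 3 h. Slc25a37, the mitochondrial iron importer, rose by 2.66, Ppox, a late heme enzyme, by 1.97, and Hmox1, which breaks heme down, by 1.79 after a change of -1.20 at 3 h (adjusted p = 2.13e-07). Eif2ak1, the kinase HRI that slows globin translation when heme is short, rose by 2.004. The lists here count members and were not tested as sets.

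**Figure D5:**
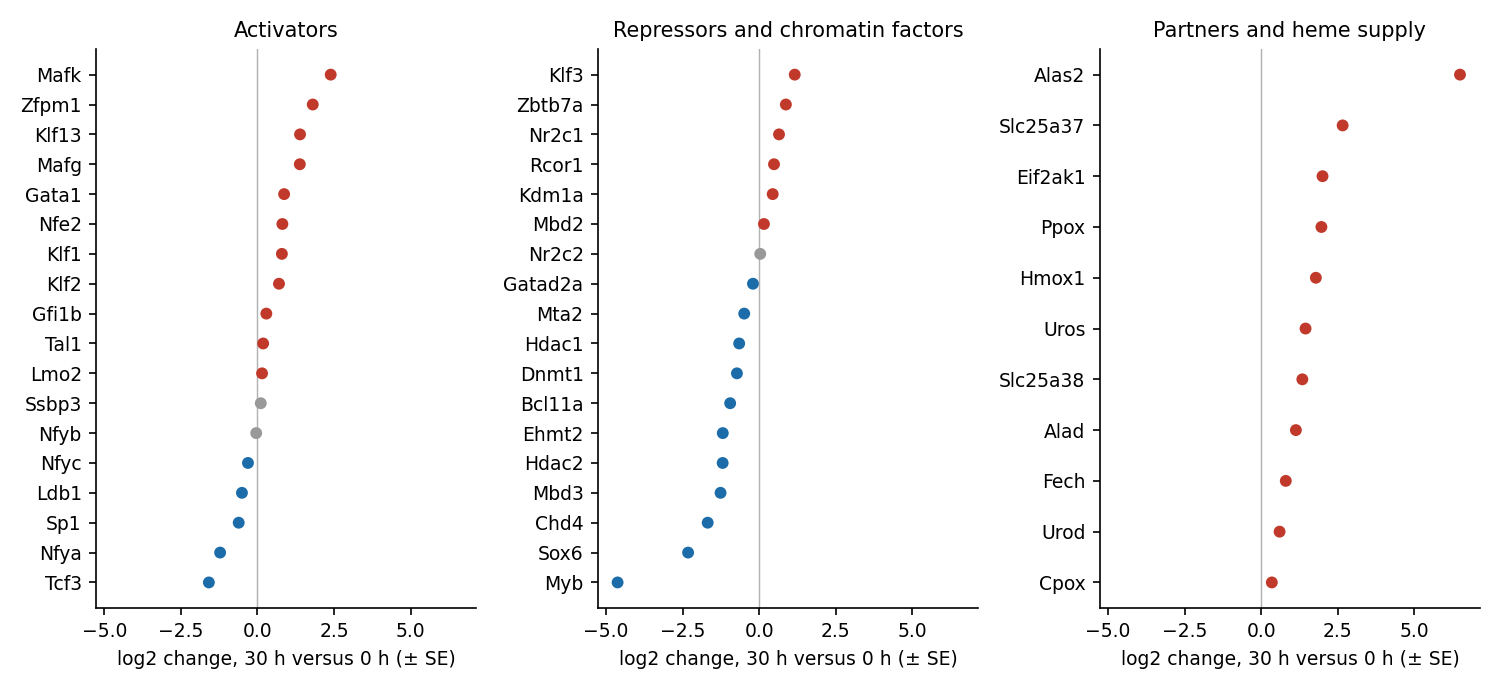
Log2 change at 30 h versus 0 h (horizontal axis, points ± limma SE from all 18 arrays; most error bars are smaller than the points) for the tested genes of 3 lists, one per panel; red points were called higher, blue lower and grey not called. Activators are split 11 higher and 5 lower, repressors and chromatin factors 6 higher and 11 lower, and the 11 measured genes of the partner and heme list are all higher.

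The genes next to the globin clusters were also read, as the 5 tested genes nearest on each side in RefSeq order. Beside the alpha cluster 5 of 10 were higher and 2 lower at 30 h, against 36.6% and 33% of all genes. Nprl3, which adjoins Hba-x and carries alpha-globin enhancers in its introns, went from 7.82 ± 0.050 to 8.87 ± 0.070, a rise of 1.05 (SE 0.21, adjusted p = 0.000387). The next gene, Mpg, changed by 0.04 (adjusted p = 0.612), and Snrnp25, 2 genes further, rose by 1.05 and was as high at 14 h (1.04). Cpeb4, the largest rise of these 10 at 2.15, and Stk10, the largest fall at -3.20, have 15 and 5 genes between them and the cluster. Around the beta cluster the nearest tested genes have 21 to 106 genes between, and 5 of the 10 were higher and 2 lower. Olfr78, the only olfactory receptor gene among them, changed by 0.38 (adjusted p = 0.0928).

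The genes whose values followed each embryonic chain most closely over the 18 arrays are given as a description, and most of the variation they share is the time course itself. Closest to Hbb-bh1 were Ctsb (Pearson r = 0.994), Plin2 (0.993), Gnpda1 (0.993), Gypc (0.992) and Natd1 (0.992). Ctsb encodes a lysosomal protease and Gypc glycophorin C of the red cell membrane. Closest to Hba-x were 2900093K20Rik (0.990), Trp53inp2 (0.988), Wdr7 (0.987), Amdhd2 (0.987) and Glmp (0.987). Closest to Hbb-y were Cd177 (0.982), Phf1 (0.980), Amhr2 (0.977), Ddt (0.976) and Gstt1 (0.976). No embryonic chain was among the closest of another. Hba-x ranked 605 of all tested genes in likeness to Hbb-bh1 (r = 0.943), and Hbb-y ranked 1153 (r = 0.901).

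Markers of the labeled cell type and of others are given beside the 36.6% of all tested genes that were higher and the 33% that were lower at 30 h, and with so few markers a list several of these counts are near those shares. Of 8 erythroid markers measured 6 rose and 0 fell at 30 h, and their mean level went from 9.32 to 9.40 on the 0 h arrays to 11.63 to 11.66 at 30 h. Mast cell and basophil markers, 8 measured, went from 4.71 to 4.88 to 3.18 to 3.30, with 4 of 7 tested genes lower and 1 higher. Megakaryocyte markers stood at 4.79 to 4.85 and 4.36 to 4.47 (2 higher and 2 lower of 5 tested), granulocyte and macrophage markers at 3.04 to 3.21 and 3.07 to 3.28 (2 higher and 1 lower of 4), and lymphoid markers at 3.36 to 3.52 and 3.51 to 3.69 (2 higher and 0 lower of 5). The gap between 3' and 5' control probe sets, which widens with shorter labeled RNA, rose from 1.89 at 0 h to 2.20 at 30 h for Actb, from 1.13 to 1.52 for Gapdh and from 1.79 to 2.41 for Tfrc. The part of these changes in the globin results was not tested. The lowest correlation between arrays of 1 time was r = 0.9949 over all probe sets.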

How the data were processed

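Total RNA of 18 samples was biotin-labelled and hybridised to Affymetrix arrays, per the labels' protocols. The authors deposited log2 values for 45101 probe sets; base 2 was inferred from their range (highest 14.37), and probe summary, background correction, scaling and scan dates: not given in the sources used here. Probe sets took gene names from the platform annotation (34958 probe sets with 1 gene, 932 with several, 9211 with none), symbols were checked by Entrez identifier in RefSeq (0 changed), and promoters came from RefSeq on GRCm38.p6. Of several probe sets the brightest was used. limma 3.58.1 in R 4.3.3 fitted all 18 arrays with a mean per time and 12 residual degrees of freedom. No pseudocount was needed. Exact permutation tests used scipy 1.17.1. The code was tested on simulated data. No depth applies to arrays; 3 arrays per time limit the precision.

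The globin genes, gene lists, rule for named genes and alternatives were chosen with earlier results of these data known. Named genes are all 5 globin genes, up to 5 called genes with the largest change at 30 h from each pathway list, all flanking genes tested within the 5 nearest per side, of which the text gives those nearest or most changed, and the 5 genes most like each embryonic chain. A few others are named with their values known, as the text says. Control scaling used the hybridization controls only, without the poly-A spike-ins. Alternatives covered scaling (quantile, equal medians, 18 hybridization control probe sets), the filter (none, 60th percentile), probe sets, arrays fitted, variance model, the replicate number as a block and leaving out each array.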

Additional observations from a re-analysis of the deposited data

How the results depend on the processing

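Scaling on the hybridization controls called 1 globin gene higher at 3 h and 1 at 7 h against 0 h, and 0 lower from 14 h to 21 h; averaging probe sets per gene called 1 at 3 h. Without probe sets suffixed _x_at, _s_at or _a_at, which left 3 of the genes measured, 1 was higher than at 0 h after 3 h and 1 after 7 h, and 2 were at each later time; over the steps 0, 1, 1 and 2 were higher and the fall from 14 h to 21 h stayed at 1. That fall was called in 0 genes with no filter, with the replicate block (Hba-a2 adjusted p = 0.0571) and with only the arrays compared. Leaving out single arrays gave 0 to 1 genes lower at 3 h, at 21 h and from 14 h to 21 h, and 1 to 2 higher from 3 h to 7 h. It gave 3 to 4 higher at 14 h against 0 h, 2 to 4 from 7 h to 14 h and 3 to 4 from 21 h to 30 h. No pairing of the samples by replicate number was evident, though 3 arrays per time cannot exclude it. Same-numbered deviations correlated at -0.17 to 0.19 (median 0.033) and different-numbered ones at -0.32 to 0.28 (median -0.0056). Of the 18 arrays, 6 correlated best with their own number. Over all genes the block moved the 30 h calls from 8846 to 8852.

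The share of its log2 rise that Hba-x reached by 14 h was 45.7% with quantile scaling, 47.0% with equal medians, 49.2% with control scaling and 45.9% to 47.5% without single arrays. With control scaling it was 64.1% by 21 h, and that of Hbb-bh1 74.0%. The changes that turned sign were all uncalled, before and after. Hba-x at 7 h ranged from -0.21 to 0.24 without single arrays. Hbb-y at 3 h was -0.034 with the mean of probe sets, -0.19 with its near-equal probe set and -0.27 to 0.34 without single arrays. Hbb-b2 from 3 h to 7 h was 0.022 with quantile scaling, 0.0067 with equal medians, 0.094 with the mean, 0.19 with its other probe set and -0.064 to 0.069 without single arrays. With control scaling Hbb-b2 was 0.21 from 7 h to 14 h and -0.084 from 14 h to 21 h, and Hba-a2 was 0.038 at 3 h. From 21 h to 30 h Hbb-b2 was -0.0063 with quantile scaling and -0.0033 to 0.059 without single arrays. The cause of these shifts was not tested. Signals near the arrays' low end, as for Hbb-y and Hba-x before 14 h, limit how well a fold is known.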
